A study of Mus musculus with 2 samples.

Results

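The Gq and calcium signalling components described here were 10 genes, taken as a list for the pathway that tachykinin receptors (TKRs) use: the G protein subunits Gnaq and Gna11, the phospholipases Plcb1, Plcb3 and Plcb4, the calcium release channels Itpr1 and Itpr2, the kinase Prkca, and the inhibitors Rgs2 and Rcan1. Every probe named on the array by a RefSeq transcript of these genes was used. Probes named in another way were not searched. They were 10 of the 20658 named genes with a probe, and all 10 were well above background on both arrays, as were 15258 named genes in all. Ovaries of 2-week-old mice were cut lengthwise and the pieces were cultured for 3 days. By the study's text the cut was symmetrical, to limit errors from the use of different ovaries. Whether the pieces of an ovary were split between the groups was not stated for these RNAs. One group, TKR agonists, received ligands that activate TACR1 ([Sar9, Met(O2)11]-SP), TACR2 (GR-64349) and TACR3 (a succinylated analogue of a substance P fragment), and the other, TKR antagonists, received blockers of TACR1 (a non-peptide antagonist), TACR2 (GR-94800) and TACR3 (SB218795), with each ligand at 1 μM. The RNA of each group was labelled and hybridised to 1 array. By the study's text the antagonists were given together, while for the agonists this is not stated. There was no untreated array, so every difference is between pieces given agonists and pieces given antagonists. The activity of the receptors was not measured. The strain of these mice and the number of ovaries behind each RNA were not given, and an ovary in culture has no blood supply or pituitary input.

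Tachykinin receptors couple to Gq proteins. An activated receptor loads GTP onto Gαq or Gα11, which switch on phospholipase Cβ. This enzyme cleaves a membrane lipid into inositol trisphosphate (IP3), which opens calcium channels of the endoplasmic reticulum, and diacylglycerol, which recruits protein kinase C together with calcium. Calcium also activates calmodulin and the phosphatase calcineurin, which sends NFAT transcription factors to the nucleus. RGS2 speeds the shut-off of Gαq and RCAN1 binds and restrains calcineurin. The genes of both these inhibitors are known to be induced by the pathway they act on. In the ovary, Gq and calcium signals are known from the ovulatory response of granulosa cells and from oocyte activation. The arrays measured transcripts, and neither calcium nor the activity of any of these proteins.

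With 1 array per group there was no replicate check, and no test between the groups could be made. Signals were intensities in scanner units after the background correction of the image analysis software. Log2 ratios are those of agonists over antagonists, after scaling of each array on its 75th percentile (672 units for the agonists, 569 for the antagonists). Raw signals of a gene can therefore lie higher on the agonist array while the scaled ratio is near or below 0. The error given is the software's own estimate for a spot, carried over to the log2 ratio. It does not hold the spread between ovaries. All named genes well above background on both arrays had a median log2 ratio of -0.10 with an SD of 0.48 across genes, and the central 95% of genes lay between -0.69 and 1.27. The 2 brightest probes of a gene differed by a median of 0.14 in log2 ratio over 3781 genes, and repeated spots of a probe had a median SD of 0.07 over 277 probes. The share of spots well above background was 65.4% for the agonists and 61.6% for the antagonists.

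By their brightest probes, all 10 genes were within the central 95% of all named genes, and none reached a 2-fold difference in either direction. The phospholipases Plcb1 and Plcb4 had the highest ratios, and Gna11 and Prkca the lowest. The plot of signals gives the values of every probe on both arrays.

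**Figure D1:**
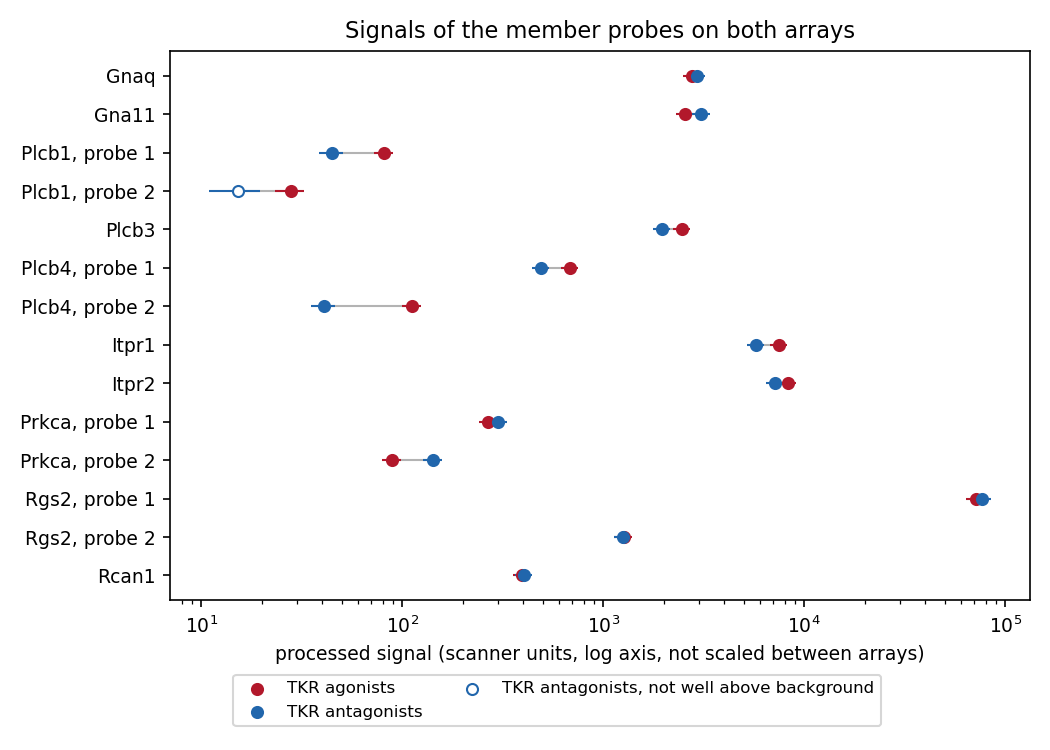
Processed signal of each of the 14 probes of the 10 genes, in scanner units on a log axis, on the TKR agonist array (red) and the TKR antagonist array (blue). Bars are the software's error of the spot, and the open point marks the only value not well above background. The points of Rgs2, Rcan1 and Gnaq nearly coincide, while those of Plcb1 and of the second Plcb4 probe lie apart.

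Gnaq and Gna11, the Gα subunits among the 10 genes, lay in the lower part of the distribution. Gnaq, the gene of Gαq, gave a signal of 2768 with the agonists and 2926 with the antagonists (probe for NM_008139). Its log2 ratio was -0.32 ± 0.20, at percentile 18.6 of all named genes. Gna11 encodes the close relative Gα11, which couples to the same receptors. It gave 2549 with the agonists and 3081 with the antagonists (NM_010301), a log2 ratio of -0.52 ± 0.20 at percentile 6.14, the lowest of the 10 genes. Relative to the median of all genes, Gnaq was at -0.23 and Gna11 at -0.42. Both were below 0 in 12 of 12 processing settings, between -0.38 and -0.08 for Gnaq and between -0.57 and -0.27 for Gna11. Each had 1 probe with 1 spot, so the settings that treat spots or probes differently repeat the main value. In RNA of whole ovary pieces, fewer cells that express a gene and less RNA per cell cannot be told apart.

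The 3 phospholipase Cβ genes all had ratios above 0. Plcb3 had a signal of 2458 with the agonists and 1954 with the antagonists (NM_008874), and its log2 ratio was 0.09 ± 0.20, at percentile 70.9. The scaled difference was thus smaller than that of the raw signals. Plcb1 was dim on both arrays, with 81.2 for the agonists and 44.7 for the antagonists (NM_019677). Its log2 ratio of 0.62 ± 0.25 was the highest of the brightest probes, at percentile 91.5, and corresponds to a 1.54-fold higher value with the agonists. Background correction matters at this signal: the ratio was 0.30 with normexp, a correction that models signal and background together, and ranged up to 0.87 under the other settings. A second Plcb1 probe (NM_001145830) read 27.9 with the agonists and 15.3 with the antagonists. The latter was not well above background, so the probe gives no firm ratio. With 19.9, the lowest signal well above background on that array, in its place, the scaled agonist value was 1.19-fold higher. This is not a strict bound, since some probes not well above background read more than 19.9, and it leaves out the spot's error.

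Plcb4 was measured by a pair of probes for the same transcript (NM_013829), and they differed. The brighter one read 684 with the agonists and 490 with the antagonists, which gave a log2 ratio of 0.24 ± 0.20 at percentile 80.3. The dimmer one read 112 with the agonists and 40.8 with the antagonists, and its log2 ratio was 1.21 ± 0.25, or 2.32-fold. Both were above 0, but the gap of 0.97 between them was reached by only 1.98% of genes with at least 2 probes on both arrays. The dimmer probe fell to 0.52 with normexp. Plcb4 therefore has no single value here: it was 0.24 by its brightest probe and 0.73 as the mean of both. Plcb2, the remaining phospholipase Cβ gene, was not well above background on either array. Plcb1 and Plcb4 are neighbouring protein-coding genes on chromosome 2.

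The IP3 receptors were bright. Itpr2 lay close to the middle of the distribution and Itpr1 in its upper part. Itpr1 gave 7463 with the agonists and 5749 with the antagonists (NM_010585), and Itpr2 gave 8258 with the agonists and 7144 with the antagonists (NM_019923). After scaling, the log2 ratio of Itpr1 was 0.13 ± 0.20, at percentile 74.0. That of Itpr2 was -0.03 ± 0.20, at percentile 58.6. Itpr2 was the only one of the 10 genes whose sign depended on the scaling, with values above 0 in 7 settings and below 0 in 5. Itpr3, the third gene of this family and not one of the 10, was looked at after its values were seen. It was spotted 10 times, and its log2 ratio was 0.75, with single spots between 0.66 and 0.84.

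Prkca encodes protein kinase Cα, a form that needs both calcium and diacylglycerol. Its brighter probe read 267 with the agonists and 300.3 with the antagonists (NM_011101), a log2 ratio of -0.41 ± 0.21 at percentile 11.1. A second probe for the same transcript read 89.2 with the agonists and 142 with the antagonists, for a log2 ratio of -0.92 ± 0.22. Both probes were lower with the agonists, and 9.55% of genes had probes at least as far apart. The mean of both was -0.66. Prkcb, another calcium-dependent form, had the opposite sign, with 2198 for the agonists and 946 for the antagonists, a log2 ratio of 0.97 ± 0.20 (chosen after its values were seen). Its second probe gave 0.93.

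Rgs2 and Rcan1 were nearly equal on the arrays as read and slightly lower with the agonists after scaling. Rgs2 gave 71185 with the agonists and 76884 with the antagonists (NM_009061), a log2 ratio of -0.35 ± 0.20 at percentile 15.7, and its spot was not saturated. A second, dimmer probe read 1261 with the agonists and 1251 with the antagonists, which gave a log2 ratio of -0.23 ± 0.20. The gap of 0.12 between these probes was close to that of a typical gene. The second probe was at 0.01 without scaling and at 0.02 on the spike-in controls, so its sign rests on the scaling. Rcan1 had 1 probe (NM_019466), which read 394 with the agonists and 404 with the antagonists, and its log2 ratio was -0.28 ± 0.21 at percentile 23.9. By its brightest probe, each of these feedback genes was below 0 in 12 of 12 settings, from -0.41 to -0.11 for Rgs2 and from -0.33 to -0.03 for Rcan1. Each of their probes had 1 spot, so the settings that treat spots differently repeat the main value. No time before 3 days of culture was measured.

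Rgs2 and Rcan1 are shown with the 250 bases before their annotated starts, because calcium-responsive elements are sought in such regions (RefSeq, GRCm38.p6, each on the minus strand and written in the direction of transcription). Rcan1 has an inner and an outer start, and the shorter transcript from the inner one is known as a calcineurin and NFAT target. The letters searched on both strands were TGACGTCA (the cAMP and calcium response element, CRE), TGACG (its shorter core, which also lies within the CRE), GGAAAA (the NFAT core) and TGANTCA (AP-1). Capitals mark these matches. The windows are chr16:92400079-92400328 for the inner start of Rcan1, chr16:92466170-92466419 for its outer start and chr1:144004150-144004399 for Rgs2.
Rcan1, inner start: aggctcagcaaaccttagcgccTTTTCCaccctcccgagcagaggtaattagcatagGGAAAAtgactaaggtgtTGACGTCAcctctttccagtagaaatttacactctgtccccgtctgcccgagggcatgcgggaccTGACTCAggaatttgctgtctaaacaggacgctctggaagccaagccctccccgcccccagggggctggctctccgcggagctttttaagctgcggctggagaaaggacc
Rcan1, outer start: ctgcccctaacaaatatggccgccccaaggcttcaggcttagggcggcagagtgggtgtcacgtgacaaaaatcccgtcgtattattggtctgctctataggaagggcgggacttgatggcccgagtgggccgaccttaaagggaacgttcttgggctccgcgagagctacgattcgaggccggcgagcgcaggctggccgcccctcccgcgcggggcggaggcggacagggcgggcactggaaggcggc
Rgs2: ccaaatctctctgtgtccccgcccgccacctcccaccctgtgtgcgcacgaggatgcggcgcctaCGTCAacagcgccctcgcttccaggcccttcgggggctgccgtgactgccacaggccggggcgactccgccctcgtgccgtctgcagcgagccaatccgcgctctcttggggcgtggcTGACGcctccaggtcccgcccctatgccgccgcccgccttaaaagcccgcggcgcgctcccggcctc
The inner Rcan1 window held the NFAT core 228 and 193 bases before the start, the CRE at 175 bases and AP-1 at 110 bases, while the outer window held none of these letters. The Rgs2 window held the shorter CRE core at 185 and 67 bases. Of all 32851 windows of this length in the table, 1.55% held the CRE, 17.8% the shorter core, 20.4% the NFAT core and 6.75% AP-1. These matches are a description of the letters and not of binding. The probe named by NM_019466 was not resolved to either Rcan1 start here, so the Rcan1 value cannot be assigned to the inner or the outer transcript.

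Windows were found for 9 of the 10 genes, 11 in all, since Rcan1 and Plcb4 each have 2. Outside Rcan1 and Rgs2, the only match was AP-1 in the Plcb3 window, 153 bases before the start. By contrast, the GC box (GGGCGG) stood in 10 of the 11 windows and in 32.7% of all windows. The GC content of the 11 windows ran from 42.8% to 85.2%, against a median of 52.4% for all windows, and the window with the lowest value, the inner start of Plcb4, was the one without a GC box.

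**Figure D2:**
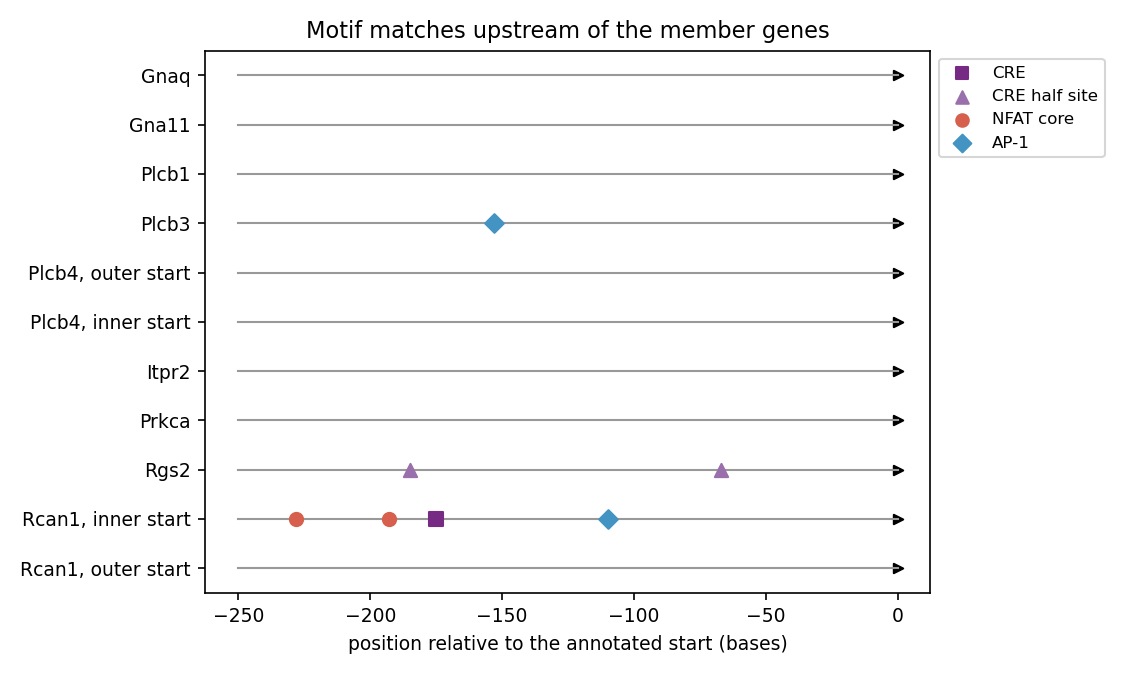
Positions of the CRE, its shorter core, the NFAT core and AP-1 in the 250 bases before each annotated start of 9 of the 10 genes (x axis, bases relative to the start; arrows mark the start). Only the windows of Plcb3, Rgs2 and the inner start of Rcan1 hold a match, and the shorter core within the Rcan1 CRE is not drawn apart.

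Over the 10 genes, the median log2 ratio was -0.15, against -0.10 for all named genes, with an SD of 0.36 across the 10. Of the 10, 4 were above 0 and 6 below, and 5 lay on each side of the median of all genes. At 2-fold, 0 of the 10 were higher and 0 were lower with the agonists, where the shares of all named genes were 4.01% and 0.57%. At 1.5-fold, 1 was higher (Plcb1) and 0 were lower, where the shares of all named genes were 9.26% and 4.28%. With 10 genes, such counts cannot be told from the shares of all genes.

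**Figure D3:**
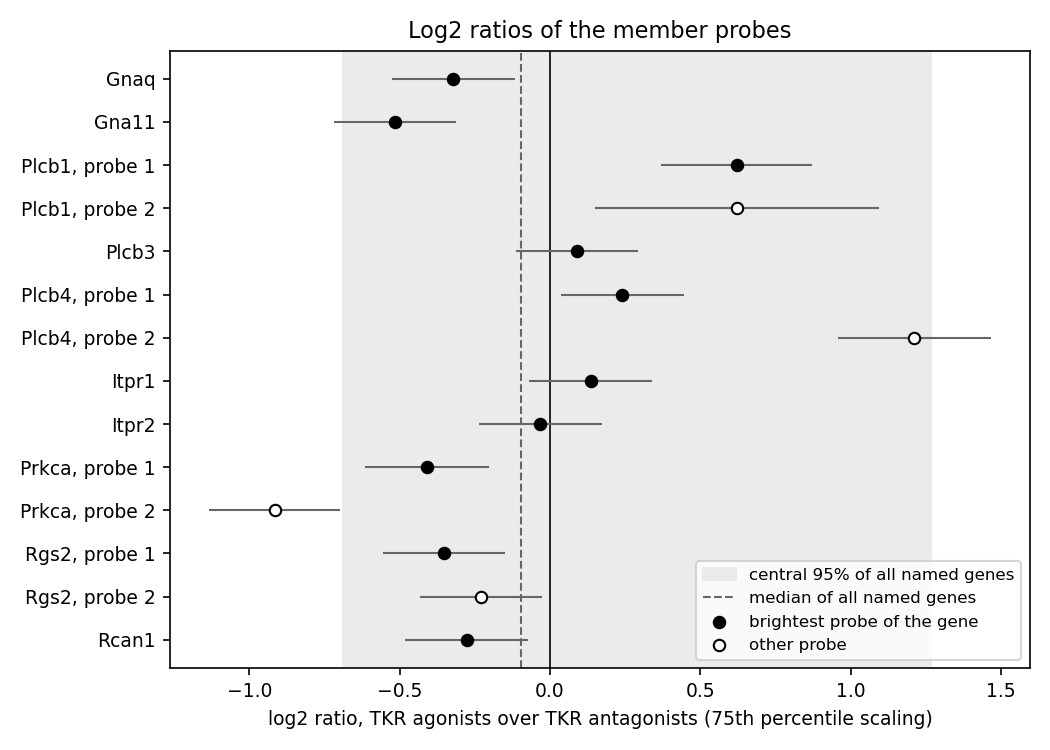
Log2 ratio (x axis, TKR agonists over TKR antagonists, 75th percentile scaling) of each probe of the 10 genes, with the software's error as bars. Filled points are the brightest probe of a gene and open points the others; the grey band holds the central 95% of all named genes and the dashed line is their median. The filled points all lie inside the band, from -0.52 for Gna11 to 0.62 for Plcb1, and the second Prkca probe at -0.92 lies outside it.

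In order from the lowest ratio, the genes ran Gna11, Prkca, Rgs2, Gnaq, Rcan1, Itpr2, Plcb3, Itpr1, Plcb4 and Plcb1. Of the 9 gaps between neighbours, 1 was larger than the software's error of the gap, that between Plcb4 and Plcb1 (0.38 with an error of 0.32), and this held neither with normexp, where the gap was 0.09, nor with all probes averaged, where Plcb4 (0.73) lay above Plcb1 (0.62). The next largest, between Rcan1 and Itpr2, was 0.24 with an error of 0.29. The error of a gap covers the spots and not the ovaries, so the order of neighbours is a description of these arrays. From the median of all genes, 7 of the 10 lay farther than their own software error, as did 46.7% of all named genes. The grid of settings shows that each gene kept its side of that median under all 12 settings. For the settings that shift a whole array by a constant this holds by construction. The median over spots and kept outlier spots left each gene's own value unchanged, since every probe of the 10 genes had 1 spot. The quantile, loess and normexp settings are those that could have moved it for every gene. Averaging of probes changed the own value of Plcb4, Prkca and Rgs2 alone.

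**Figure D4:**
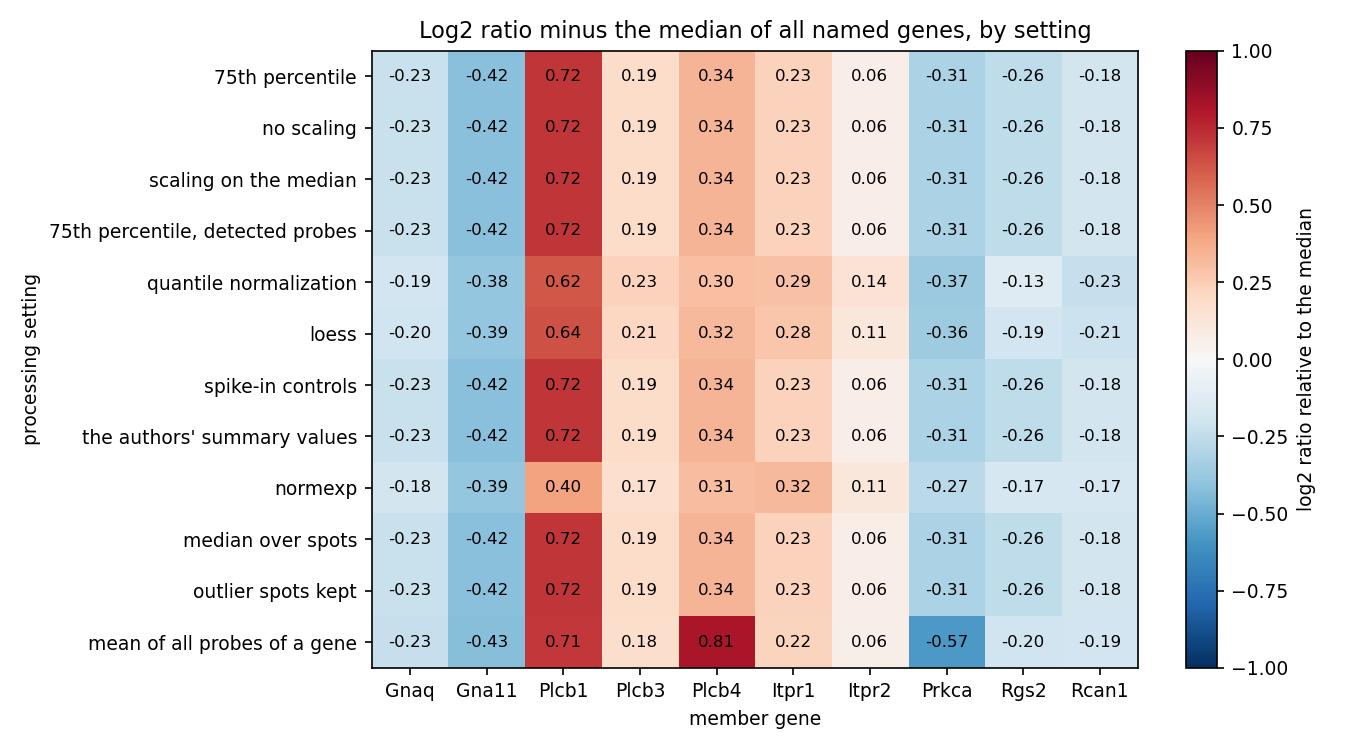
Log2 ratio of each of the 10 genes (columns) minus the median of all named genes, under each of the 12 processing settings (rows), with the value in each cell and colour from blue (lower) to red (higher). Gnaq, Gna11, Prkca, Rgs2 and Rcan1 are below the median and the other 5 genes above it in every row; Plcb1 drops to 0.40 with normexp, and Plcb4 rises to 0.81 and Prkca falls to -0.57 when all probes are averaged.

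Upstream of the 10 genes, Tacr2 was the only tachykinin receptor gene well above background, with 2454 for the agonists and 2465 for the antagonists, a log2 ratio of -0.25 ± 0.20 by its brighter probe. The dimmer Tacr2 probe, named by the same transcript, was not well above background on either array. Detection of Tacr2 therefore rests on its brighter probe. Tacr1 and Tacr3, with 1 probe each, were not well above background on either array, which does not show that they were absent. The study's text reports antibody staining for TACR1, TACR2 and TACR3 in granulosa cells of secondary follicles at 2 weeks of age. The rest of the pathway was described by 10 lists with 181 genes, none of them among the 10 genes above, and 153 were well above background on both arrays. Their median log2 ratio was 0.03, and with the agonists 9 genes (5.88%) were higher by 2-fold or more and 1 (0.654%) was lower by as much. The shares of all named genes past the same folds were 4.01% and 0.57%.

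The Gq-coupled receptors had the highest median of the 10 lists, 0.45 over 16 genes, and 2 of them were at least 2-fold higher. Htr2b, a serotonin receptor, read 352 with the agonists and 72.8 with the antagonists, for a log2 ratio of 2.03. P2ry6, a receptor for uridine diphosphate, was spotted 10 times, with signals of 1094 to 1260 with the agonists and 284 to 341 with the antagonists, and its log2 ratio was 1.68. These spots read the same RNA of a group again and show the error of the spots alone, within which the arrays did not overlap. Kiss1r, the kisspeptin receptor, was the lowest at -0.60. Over genes at or above the 75th percentile of signal, the median of this list was -0.06, so its sign rested on the dimmer receptors.

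The other RGS genes were widely spread. Their median over 15 genes was 0.04, with 3 at least 2-fold higher and 0 lower. Rgs4 read 682 with the agonists and 147 with the antagonists, which gave a log2 ratio of 1.97, and its other probe gave 1.57. Like RGS2, RGS4 acts on Gαq. Rgs5, known from pericytes, read 393 with the agonists and 138 with the antagonists, and its log2 ratio was 1.27 that was 0.91 with normexp. For Rgs9 the signals were 381 with the agonists and 142 with the antagonists, for a log2 ratio of 1.19; its other probes gave 1.15 and -0.14. Rgs10 was the lowest at -0.53.

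The list of protein kinase C genes other than Prkca and of targets also held Prkd and Rasgrp genes. Its median was 0.24 over 13 genes, with 2 at least 2-fold higher. Rasgrp2, a diacylglycerol and calcium regulated activator of Rap GTPases, read 940 with the agonists and 288 with the antagonists, which gave a log2 ratio of 1.46, and its other probe gave 1.34. Prkch read 66.4 with the agonists and 24.3 with the antagonists, and its log2 ratio was 1.21 that shrank to 0.25 with normexp. Prkcd was the lowest at -0.37. Calmodulin and its kinases held a gene past 2-fold in each direction and had a median of -0.17 over 16 genes. Camk1g read 1412 with the agonists and 426 with the antagonists, for a log2 ratio of 1.49. Camk2b, the only gene of the 153 at least 2-fold lower, read 64.1 with the agonists and 157 with the antagonists, which gave a log2 ratio of -1.53, but its other probe gave 0.37 and was not well above background on the antagonist array.

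The remaining lists held 1 gene past 2-fold. It was Trpc6, a channel opened by diacylglycerol, with 1064 for the agonists and 437 for the antagonists, a log2 ratio of 1.04. Its list, calcium release and pumps, had a median of -0.03 over 23 genes and its lowest gene was Atp2b2, a plasma membrane calcium pump, at -0.56. Medians were 0.03 for the 19 other G protein subunits (Gng10 at -0.61 to Gng11 at 0.62), 0.25 for 9 other phospholipases C (Plcl2 at -0.12 to Plcl1 at 0.71) and -0.18 for 18 genes of lipid and inositol phosphate turnover (Itpka at -0.76 to Dgkh at 0.53). They were -0.12 for 7 receptor kinases and arrestins (Grk2 at -0.49 to Grk3 at 0.28) and -0.02 for 17 genes of calcineurin and NFAT (Nfatc3 at -0.30 to Akap5 at 0.77). Of the 10 lists, 2 had a median above 0 in every setting. These were the phospholipases C (0.13 to 0.50) and the list of protein kinase C genes, targets, Prkd and Rasgrp genes (0.15 to 0.48). The medians of the other 8 changed sign in at least 1. Past 2-fold in all 12 settings were Camk1g, Htr2b, P2ry6, Rasgrp2 and Rgs4.

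Markers of ovarian cell types also differed between the arrays. The defining markers of the labelled tissue were present: 12 of 12 oocyte markers (median log2 ratio 0.11) and 12 of 12 granulosa cell markers (median -0.34, 9 below 0) were well above background on both arrays. Most of all named genes lay below 0 as well, since a log2 ratio of -0.03 stood at percentile 58.6. Theca and steroidogenic markers had a median of -0.34 over 6 of 8 genes, with Lhcgr not well above background on either array, and stroma had 0.45 over 8. Above 0 were all 8 measured markers of smooth muscle and pericytes (median 0.61), all 8 of macrophages (median 0.93), all 9 of the surface epithelium (median 0.99) and 8 of 9 of the endothelium (median 0.88). Summed over the markers, the signal scaled to the 75th percentile came to 46.7 for agonists and 29.7 for antagonists in smooth muscle and pericytes, to 16.9 and 11.8 in macrophages, and to 945 and 1102 in granulosa cells. Single genes carried much of these sums: Tagln 42.2% of the agonist sum for smooth muscle and pericytes, Csf1r 49.3% for macrophages and Kctd14 81.4% for granulosa cells. Without them the sums for agonists and antagonists were 27.0 and 18.4 for smooth muscle and pericytes, 8.58 and 4.24 for macrophages, and 176 and 211 for granulosa cells. For blood cells and platelets, 3 of 8 markers were measured on both arrays (median -0.15), with Hbb-bs and Itga2b not well above background on either. The 3 were split: Cd3e was at -0.22 and Hba-a1 at -0.15, while Pf4 was at 1.15. Pf4 read 1787 with the agonists and 682 with the antagonists. Alas2, Cd79a and Ptprc passed the background mark with the agonists alone, so they give no firm ratio. The part of any of these cell types in the values of the 10 genes, or of Rgs5 and the other pathway genes past 2-fold, was not tested.

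**Figure D5:**
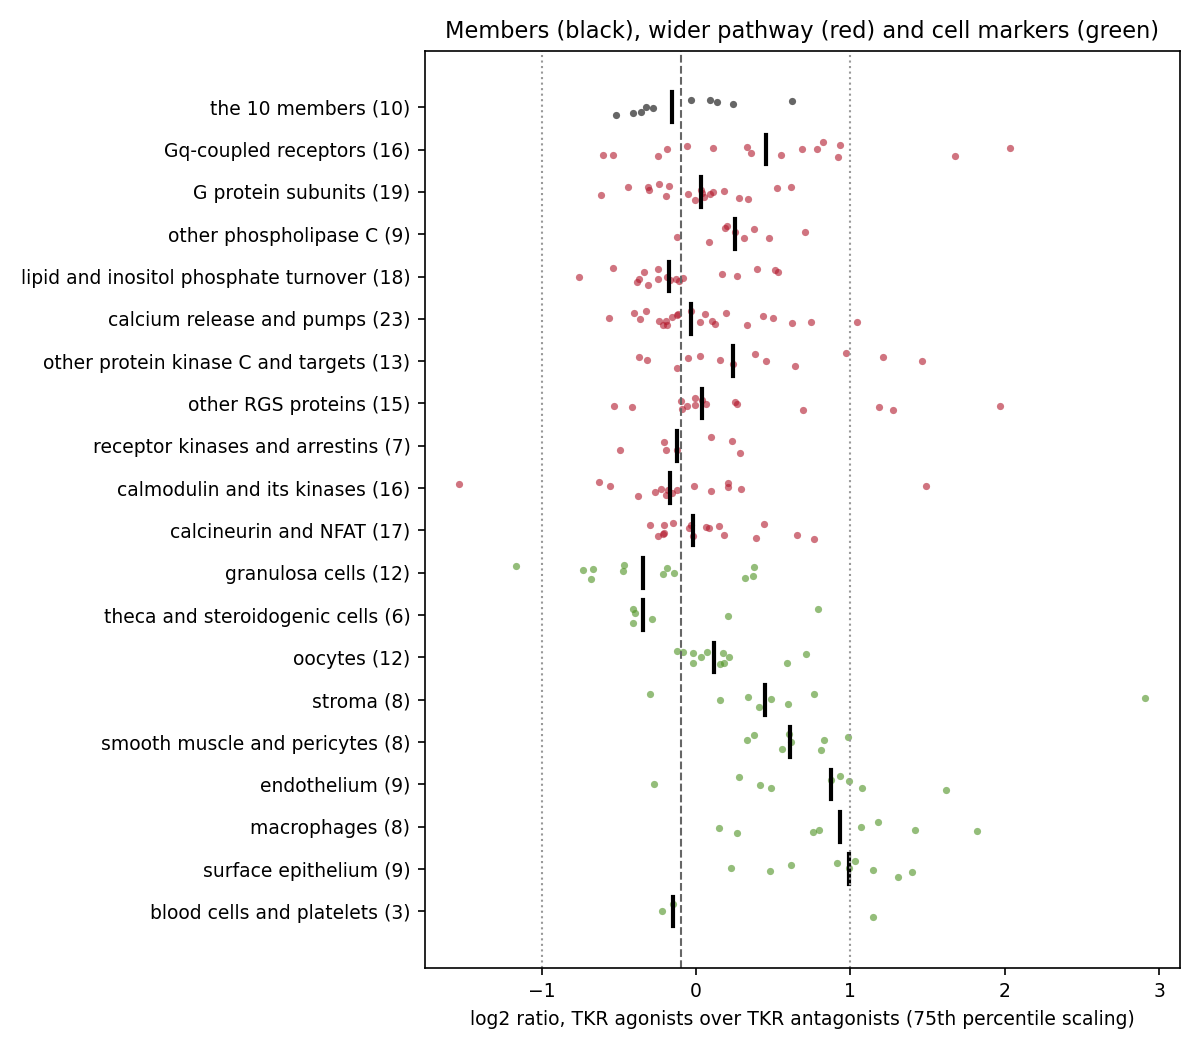
Log2 ratio (x axis, TKR agonists over TKR antagonists, 75th percentile scaling) of each gene well above background on both arrays, for the 10 genes (black), the 10 lists of the wider pathway (red) and 9 lists of cell markers (green), with the number of genes in brackets. Black bars are medians, the dashed line is the median of all named genes (-0.10) and dotted lines mark 2-fold. The 10 genes lie between -0.52 and 0.62, and the markers of smooth muscle, endothelium, macrophages and surface epithelium lie mostly to the right.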

How the data were processed

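The 2 arrays were 1-colour (Cy3) SurePrint G3 mouse arrays on the same slide. The authors deposited spot intensities of Agilent Feature Extraction 10.10.1.1 (protocol GE1_1010_Sep10, design built on mm9), background-corrected and not scaled between arrays, with marks for outliers, saturation and signal well above background. A summary table of intensities, also deposited, equalled the processed signal times 1.99 for the agonists and 2.19 for the antagonists.

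Of the 59305 spots that were not controls, 0 were saturated. Spots marked as outliers were removed, log2 signals were reduced by the 75th percentile of their array and spots of a probe were averaged, which gave 55674 probes. More than 50% of a probe's spots had to be well above background for the probe to count as such. RefSeq transcripts of GRCm38.p6 named 27230 probes, and 453 of 26531 NM probes found no symbol. A gene was represented by its brightest probe well above background on at least 1 array. The value set in place of the dim Plcb1 reading was the lowest signal well above background on the antagonist array (19.9). The number of arrays limits the precision, and with 1 per group no test was made.

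The 10 genes and all lists were chosen with earlier results of these data known. Outside the 10 genes, those named are the tachykinin receptors, genes past 2-fold and the highest and lowest of each pathway list. Also named are pathway genes seen on 1 array, undetected family members or markers, and those said to be chosen later. The markers of blood cells and platelets are named as well. Alternatives were other scalings (none, median, detected probes, quantile, loess with span 0.3, 8 spike-in E1A probes, the authors' summary values), normexp (offset 50) on the median spot signal, the median over spots, outlier spots kept, the mean over probes, filters on dim probes and folds of 1.5 and 4. Python 3.11.15, numpy 2.4.6, pandas 2.3.3, statsmodels 0.14.6, matplotlib 3.10.9, R 4.3.3 and limma 3.58.1 were used, and the calculation was tested on simulated data.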

Additional observations from a re-analysis of the deposited data

How the results depend on the processing

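By brightest or averaged probes, the count of the 10 genes at least 2-fold higher or lower was 0 under every scaling, background correction and filter tried. The dimmer Plcb4 probe, at 1.21, was not counted by itself. At 1.5-fold, 1 gene (Plcb1) was higher under the main setting. Plcb1 fell below that fold with median scaling (0.57), quantile normalization (0.58) and normexp (0.30). With all probes averaged, Plcb4 (0.73, higher) and Prkca (-0.66, lower) also passed it. The median log2 ratio of the 10 genes, -0.15, became 0.0868 without scaling and 0.0905 when the arrays were scaled on the spike-in controls. The median of all genes moved with it, from -0.10 to 0.15 under both. The median of the 153 genes of the wider pathway, 0.03, became 0.27 under both. Of these genes, 9 were at least 2-fold higher; the count was 15 under both of these settings, 5 with normexp, 2 among genes at or above the 75th percentile, 23 at 1.5-fold and 1 at 4-fold. The share of all named genes at least 2-fold higher moved as well, from 4.01% to 6.50% without scaling, 6.53% on the spike-in controls, 2.12% with normexp and 2.09% among the bright genes. The count of 1 at least 2-fold lower became 0 with normexp, 4 with no filter on dim probes, 0 among the bright genes, 5 at 1.5-fold and 0 at 4-fold, while the share of all genes lower by 2-fold went from 0.57% to 0.216%, 2.68% and 0.225% under the first 3 of these. The second Rgs2 probe changed sign to 0.0122 without scaling and 0.0159 on the spike-in controls, and the median of the Gq-coupled receptors changed to -0.0603 among bright genes, where fewer genes were counted. Of 280 alternative values of single probes, genes and lists, 33 differed in sign from the value reported. No paired analysis was possible because each group had 1 array. Of the dim probes, normexp moved Prkch from 1.21 to 0.25, Htr2b from 2.03 to 1.37, Camk2b from -1.53 to -0.99 and Plcb1 from 0.62 to 0.30. The cause of these shifts was not tested, and neither was the spread between ovaries.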
